A study of Mus musculus with 12 samples.

Results

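Solute carriers are membrane proteins that move amino acids, sugars, nucleotides, vitamins, metals and other ions across the plasma membrane and the membranes of organelles. Their genes are named Slc, with a family number and a member number, and each family shares a fold and usually a type of substrate. The solute carrier genes of polarized macrophages described here were the rows of the deposited expression table whose symbol has that form and whose mean over all libraries was at least 1 FPKM (fragments scaled to transcript length and library size). Of 372 rows with such a symbol, 170 reached the minimum, 25 of these were left out by name (the best known arginine, cystine, glucose, lactate and iron carriers and all zinc carriers of the Slc30 and Slc39 families among them), and 145 of the 23863 genes of the table remained, in 39 families. The members were thus chosen by their mean FPKM over all libraries, and their levels are a description.

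The RNA came from macrophages grown out of the bone marrow of C57BL/6 mice, wildtype or *Mirc11-/-*, aged 6 to 8 weeks. *Mirc11-/-* mice, named mirn23a-/- in the labels, lack the cluster that encodes miR-23a, miR-27a and miR-24-2. Marrow was cultured for 7 days in medium conditioned by L929 cells, a source of M-CSF, and the macrophages were then polarized for 24 h, either with LPS at 100 ng/ml and interferon gamma (M1; 50 ng/ml in the protocol and 10 ng/ml in the treatment field) or with IL-4 and IL-13 at 20 ng/ml each (M2). The 4 groups, wildtype M1, *Mirc11-/-* M1, wildtype M2 and *Mirc11-/-* M2, held 3 libraries each. Titles join genotype (Wt, or Ako for *Mirc11-/-*), a number that an M1 and an M2 library share, and polarization (Wt2260M1, Wt2261M1 and Wt2262M1, Ako2271M1, Ako2272M1 and Ako2273M1, and the same with M2), and values are listed in that order. There were no unstimulated cells, so higher in M1 and lower in M2 cannot be told apart. Genotype and number cannot be told apart either, and nothing says that the libraries of a group came from separate animals, so p-values measure the spread between these samples, which may be technical.

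The title and the treatment field name opposite polarizations for 6 libraries (Wt2261M1, Wt2262M1, Ako2273M1, Wt2261M2, Wt2262M2 and Ako2273M2), and groups followed the titles. *Nos2*, which makes nitric oxide in M1 cells, lay at 938 to 1630 FPKM in the libraries titled M1 and at 0.802 to 2.26 FPKM in those titled M2, and *Mrc1*, a lectin receptor typical of M2 cells, at 0.123 to 0.403 and 229.9 to 301 FPKM. *Mir23a* and *Mir24-2* were listed at 0 FPKM in every library and *Mir27a* reached 102 FPKM in a single library, Wt2261M1, and 0 elsewhere, so the table checks nothing about the deletion. Relative depth, read from the steps between low values, ran from 0.795 to 1.27 times that of library Wt2260M1, and absolute depth is unknown. The 10 of 11 listed macrophage markers found in the table summed to 12009 to 14269 FPKM in every library. Of other cell types, the 7 of 8 neutrophil markers in the table summed to 42.2 to 74.7 FPKM in wildtype M1, 28.4 to 32.2 in *Mirc11-/-* M1, 1.77 to 6.14 in wildtype M2 and 1.40 to 2.55 in *Mirc11-/-* M2, of which *S100a8* held nearly all in M1, while the defining genes *Elane* and *Mpo* stayed at or below 0.0457 FPKM. The 5 dendritic cell markers summed to 15.2 to 20.0 FPKM in M1 and 1.79 to 2.95 FPKM in M2, mostly *Ccr7*, and the 5 endothelial markers to 8.60 to 11.0 FPKM in wildtype M1, 13.1 to 15.3 in *Mirc11-/-* M1, 5.08 to 7.19 in wildtype M2 and 7.25 to 9.10 in *Mirc11-/-* M2. B cell, T and NK cell, mast cell, erythroid and fibroblast markers summed to at most 1.76 FPKM in any library. The part of these cells in the results below was not tested, and in bulk samples fewer cells of a type and less RNA per cell cannot be told apart.

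The sequences of the deleted microRNAs are shown because the genotype comparison turns on their loss. A microRNA lowers a messenger by pairing its seed, bases 2 to 8 of the mature strand, with sites in the 3' UTR. The mature sequences below are from RefSeq on GRCm38.p6, where they lie on the plus strand at chr8:84208563-84208583, chr8:84208727-84208747 and chr8:84208875-84208896, with the seed in capitals. The seeds of miR-23a and miR-27a share their first 5 letters, and that of miR-24 is unlike both.
mmu-miR-23a-3p: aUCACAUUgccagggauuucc
mmu-miR-27a-3p: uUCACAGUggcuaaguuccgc
mmu-miR-24-3p: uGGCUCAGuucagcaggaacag

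Mean FPKM of the members ran from 1.30 to 431, with a median of 10.1, and no member was at 0 in any library. The highest were *Slc15a3*, a lysosomal transporter of histidine and small peptides, at 431 FPKM, *Slc25a5*, an ADP/ATP carrier of the mitochondrial inner membrane, at 314 FPKM, and *Slc25a3*, the mitochondrial phosphate carrier, at 209.6 FPKM. Next came *Slc48a1*, a heme transporter of phagolysosomes, at 183 FPKM, *Slc3a2*, the heavy chain shared by several amino acid exchangers, at 174 FPKM, and *Slc31a2*, an endosomal protein of copper handling, at 161 FPKM. At the minimum, *Slc29a2* (1.30 FPKM) and *Slc17a9* (1.31 FPKM) were just inside, and *Slc6a19* (0.94 FPKM) and *Slc5a3* (0.89 FPKM) just outside. Of the members, 134 had a mean of at least 1 FPKM in all 4 groups and 11 passed only through the groups where they were high, so that part of their difference follows from the minimum: *Slc17a9*, *Slc1a2*, *Slc22a18*, *Slc25a15*, *Slc29a2*, *Slc2a3*, *Slc46a3*, *Slc5a6*, *Slc6a9*, *Slc9a7* and *Slc9a9*. By transport class, 33 are Slc25 genes, here called mitochondrial carriers, 25 carry inorganic ions and metals, 24 nucleosides, vitamins, lipids and organic ions, 23 amino acids and peptides, 21 nucleotide sugars and other cargo of the secretory pathway, and 15 sugars, polyols and monocarboxylates. The symbol form also took in 4 genes named after a carrier that are not carriers, *Slc9a3r1*, encoding a scaffold of membrane proteins, *Slc4a1ap*, *Slc7a6os* and the readthrough *Slc10a3-ubl4*, whose reads cannot be told from those of *Slc10a3*.

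M1 against M2 in wildtype cells asked how the carriers differed between the polarized states. Of the 145 members, 38 were higher and 79 lower in M1 and 28 did not pass the test (limma on log2(FPKM + 1), adjusted p below 0.05), which are 26.2% and 54.5%, where 26.6% of all 10137 genes tested were higher and 52.0% lower. The median log2 change was -0.22 over the members and -0.19 over all genes. The balance rests on the scaling: median-of-ratios scaling moved the median of all genes by 0.19, to 0, and 53 members were then higher and 64 lower, and after quantile normalization 56 and 65. A log2 change of at least 1 was reached by 9 members upward and 19 downward. This was not counted over all genes tested, so whether it is many or few cannot be said. Every class held members that moved in each direction, as the plot of log2 change by class shows.

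**Figure D1:**
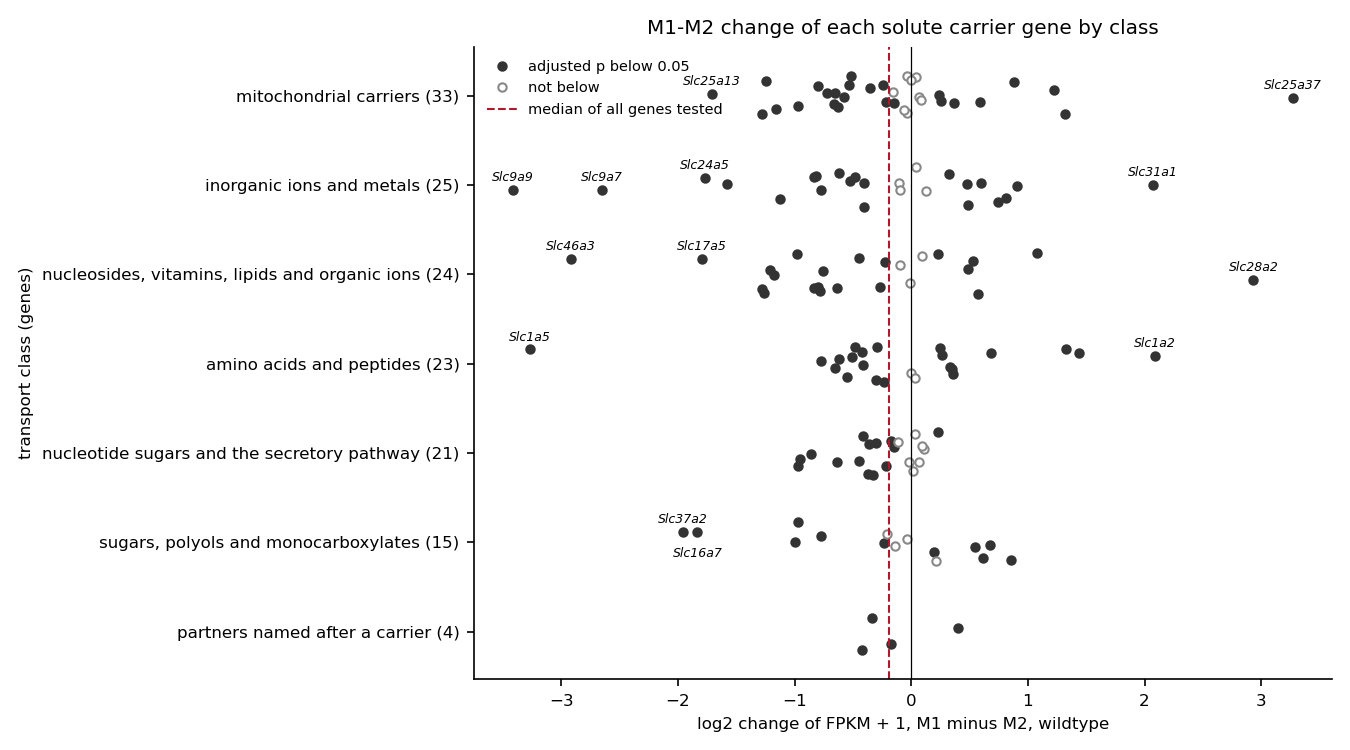
Log2 change of FPKM + 1 between M1 and M2 in wildtype cells (x axis) of each of the 145 members, by transport class (y axis, with the number of genes). Filled points passed adjusted p below 0.05, open points did not, the dashed line is the median of all genes tested at -0.19, and the vertical scatter within a class only separates points. *Slc25a37* lies farthest to the right at 3.27 and *Slc9a9*, which reached a mean of 1 FPKM only in M2, farthest to the left at -3.41.

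*Slc25a37*, encoding mitoferrin 1, which brings iron into mitochondria for heme and iron-sulfur cluster synthesis, stood at 59.3, 62.0 and 59.9 FPKM in the wildtype M1 libraries and at 5.46, 5.39 and 5.22 FPKM in those of M2 (log2 change 3.27, SE 0.049, adjusted p = 6.1e-14). All M1 libraries lay above all M2 libraries by about 1 order of magnitude. *Slc28a2*, a sodium-driven importer of purine nucleosides, stood at 26.4, 17.7 and 38.6 FPKM in M1 and 2.52, 2.21 and 3.02 FPKM in M2 (log2 change 2.93, SE 0.22, adjusted p = 7.4e-08), with a wide spread in M1 and no overlap. *Slc31a1*, the copper importer of the plasma membrane, stood at 131, 129.9 and 126 FPKM in M1 and 28.2, 31.6 and 30.2 FPKM in M2 (log2 change 2.07, SE 0.052, adjusted p = 4.2e-12), and the groups were tight and far apart. *Slc1a2*, a glutamate importer, stood at 3.45, 4.75 and 2.99 FPKM in M1 and 0.154, 0.0853 and 0.0555 FPKM in M2 (log2 change 2.09, SE 0.14, adjusted p = 3.6e-08). It was a low-level gene in both states, and on this scale its fold is understated. *Slc7a8*, a light chain of an exchanger of neutral amino acids, stood at 110.1, 115 and 120.0 FPKM in M1 and 38.4, 42.1 and 44.9 FPKM in M2 (log2 change 1.44, adjusted p = 8.0e-10). The other named members higher in M1 were *Slc15a3* (log2 change 1.32), *Slc25a12*, a mitochondrial aspartate/glutamate carrier (1.32), *Slc25a33*, a mitochondrial pyrimidine nucleotide carrier (1.22), *Slc22a4*, an ergothioneine transporter (1.08), *Slc41a1*, a magnesium transporter (0.91), *Slc25a22*, a mitochondrial glutamate carrier (0.88), and *Slc2a3*, a glucose transporter (0.86). For all genes of this paragraph, no overlap of libraries between M1 and M2 was a condition of naming. *Slc1a2* and *Slc2a3* reached the minimum of 1 FPKM only in M1, so part of their difference follows from it.

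On the other side, *Slc9a9*, a sodium/proton exchanger of endosomes, stood at 0.442, 0.378 and 0.640 FPKM in the wildtype M1 libraries and at 15.9, 12.6 and 16.1 FPKM in those of M2 (log2 change -3.41, SE 0.097, adjusted p = 1.1e-11). *Slc1a5*, an importer of glutamine and other neutral amino acids, stood at 2.12, 1.72 and 1.84 FPKM in M1 and 29.7, 29.2 and 22.2 FPKM in M2 (log2 change -3.27, SE 0.095, adjusted p = 1.4e-11). *Slc46a3*, a lysosomal transporter, stood at 0.879, 0.959 and 0.895 FPKM in M1 and 13.8, 12.7 and 14.0 FPKM in M2 (log2 change -2.92, SE 0.080, adjusted p = 8.3e-12). In these 3 genes every M2 library was more than 10-fold above every M1 library. *Slc9a9* and *Slc46a3*, and *Slc9a7* and *Slc17a9* below, reached the minimum of 1 FPKM only in M2, so part of their difference follows from it. *Slc9a7*, a sodium/proton exchanger of the trans-Golgi network, stood at 0.721, 0.861 and 1.19 FPKM in M1 and 12.1, 10.5 and 10.6 FPKM in M2 (log2 change -2.65, SE 0.11, adjusted p = 3.1e-10). *Slc37a2*, a sugar phosphate transporter of the endoplasmic reticulum, stood at 26.5, 24.8 and 27.6 FPKM in M1 and 99.7, 93.4 and 124 FPKM in M2 (log2 change -1.96, adjusted p = 6.4e-09). Both were low in every M1 library and high in every M2 library. The other named members lower in M1 were *Slc16a7*, a monocarboxylate transporter (log2 change -1.83), *Slc17a5*, the lysosomal exporter of sialic acid (-1.79), *Slc24a5*, a sodium/calcium exchanger known from melanosomes (-1.77), *Slc25a13*, the other aspartate/glutamate carrier (-1.71), *Slc26a11*, a sulfate and chloride transporter (-1.58), *Slc17a9*, the vesicular nucleotide transporter (-1.28), and *Slc25a4*, an ADP/ATP carrier (-1.27). For these 12 genes, no overlap between the states was a condition of naming.

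**Figure D2:**
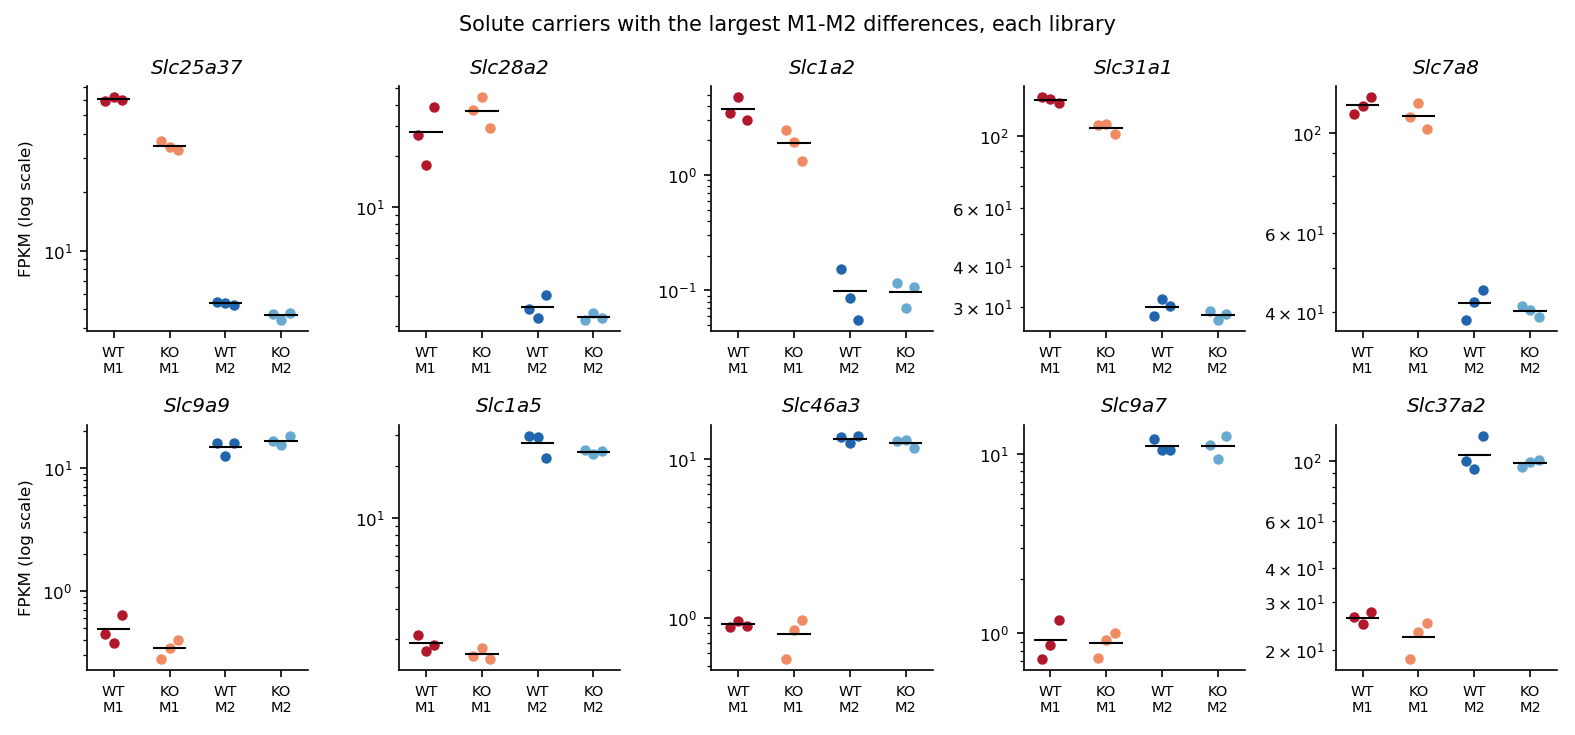
FPKM (y axis, log scale, a scale of its own in each panel) of the 5 members with the largest log2 change upward and the 5 with the largest downward in wildtype M1, in wildtype (WT) and Mirc11-/- (KO) M1 and M2 libraries (x axis). Points are libraries and lines group means of 3. In every panel the M1 and M2 libraries are apart in both genotypes.

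Promoter sequences of 3 of these genes are shown because 2 of them encode the aspartate/glutamate carriers that moved in opposite directions and the third, *Slc28a2*, holds spacings known for STAT proteins, which carry interferon gamma and IL-4 signals. RefSeq promoters on GRCm38.p6 (a fixed window around the transcription start) were found for 109 of the 145 members. Capitals mark letters that match a searched motif on either strand: GAS (TTCNNNGAA), the STAT6 spacing (TTC and GAA with 4 bases between), the ISRE core (GAAA, 2 bases, GAAA), AP-1 (TGANTCA), the E-box (CACGTG), the hypoxia element core (ACGTG, which lies within the E-box), the amino acid response core (TGATGNAA) and NF-kB. *Slc28a2* (chr2:122426185-122426484, plus strand) held a GAS and a STAT6 spacing, *Slc25a13* (chr6:6217124-6217423, minus strand) an AP-1 match that overlaps an E-box, and *Slc25a12* (chr2:71367706-71368005, minus strand) none of them.
*Slc28a2*: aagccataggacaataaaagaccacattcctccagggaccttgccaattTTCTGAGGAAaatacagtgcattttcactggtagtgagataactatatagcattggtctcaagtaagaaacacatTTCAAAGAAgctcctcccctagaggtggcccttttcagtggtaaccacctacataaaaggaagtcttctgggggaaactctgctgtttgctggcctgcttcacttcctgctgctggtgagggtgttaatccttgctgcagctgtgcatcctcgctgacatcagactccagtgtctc
*Slc25a12*: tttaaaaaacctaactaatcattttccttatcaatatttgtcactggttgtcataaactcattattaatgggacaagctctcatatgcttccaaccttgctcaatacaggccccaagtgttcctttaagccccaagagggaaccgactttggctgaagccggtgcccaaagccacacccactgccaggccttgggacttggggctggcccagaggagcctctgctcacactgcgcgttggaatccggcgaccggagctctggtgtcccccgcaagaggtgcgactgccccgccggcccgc
*Slc25a13*: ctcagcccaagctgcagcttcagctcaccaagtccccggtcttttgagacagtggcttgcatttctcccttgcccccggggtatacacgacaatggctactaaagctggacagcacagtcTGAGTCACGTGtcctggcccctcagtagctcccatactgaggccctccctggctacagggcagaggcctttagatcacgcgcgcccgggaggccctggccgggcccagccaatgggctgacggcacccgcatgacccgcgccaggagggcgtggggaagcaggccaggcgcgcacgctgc

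GAS was found in 5.5% of the members' promoters and in 8.32% of those of 7742 tested genes, the STAT6 spacing in 6.42% and 6.50%, the ISRE core in 2.75% and 4.08%, AP-1 in 8.26% and 6.28%, the amino acid response core in 2.75% and 2.71%, and NF-kB in 13.8% and 12.2%. The E-box stood in 21 members, which is 19.3% where all tested genes had 12.4%, and the hypoxia element core in 33.9% and 30.6%. Of the members named above for the largest changes in wildtype, 9 higher and 8 lower in M1 had a promoter. GAS stood in 1 of the higher and 1 of the lower, *Slc46a3*, the STAT6 spacing in 1 and 0, and the ISRE core in 1 and 0. AP-1 stood in 0 and 4, the E-box in 2 and 1, the hypoxia element core in 4 and 1, the amino acid response core in 0 and 1, and NF-kB in 0 and 0. All of these are matches of letters in a fixed window, described with no test.

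Of 23 amino acid and peptide carriers, 9 were higher in M1, 12 lower and 2 did not pass in wildtype cells. These are 39.1% and 52.2%, where 26.6% of all genes tested were higher and 52.0% lower. *Slc15a3* stood at 591, 598 and 588 FPKM in M1 and 229.7, 246 and 232 FPKM in M2, while *Slc15a4*, its relative known for endosomal Toll-like receptor signaling, stood at 18.1, 16.0 and 20.1 FPKM in M1 and 25.4, 23.6 and 29.7 FPKM in M2 (log2 change -0.51). The 2 relatives thus moved in opposite directions. Among the light chains that pair with *Slc3a2*, *Slc7a8* rose, *Slc7a7*, an exchanger of basic amino acids, rose by 0.68 and *Slc7a5*, an importer of large neutral amino acids, fell (log2 change -0.55), while *Slc7a6* had a change of 0.03 (adjusted p = 0.61). *Slc3a2* itself rose by 0.26. *Slc7a8* held 84.7 ± 0.23% of the summed FPKM of these 4 light chains in wildtype M1 and 73.0 ± 1.3% in wildtype M2 (SD, n = 3). Of the Slc6 family, *Slc6a6*, the taurine transporter, stood at 84.1, 84.6 and 92.2 FPKM in M1 and 159, 140.4 and 149 FPKM in M2 (log2 change -0.78), and *Slc6a8*, the creatine transporter, and *Slc6a9*, a glycine transporter, fell (-0.65 and -0.62). *Slc6a12* and *Slc6a13*, which carry betaine and GABA, had log2 changes of -0.29 and 0.36, both past the threshold. Carriers of the lysosome and endosome also differed among themselves: *Slc36a1*, a proton-coupled amino acid exporter, rose by 0.34, and *Slc36a4* and *Slc38a9*, the lysosomal arginine sensor of mTORC1, fell with changes of -0.42 and -0.30. Of the glutamine carriers, *Slc38a1* fell (-0.48) and *Slc38a2* rose (0.25), and *Slc1a5* fell by far the most. The calls on *Slc6a12* and *Slc36a4* ended under a scaling, and that on *Slc38a9* after quantile normalization. *Slc6a9* reached the minimum of 1 FPKM only in M2, so part of its difference follows from it.

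The class of mitochondrial carriers was the Slc25 family as a whole, most of which exchange metabolites, nucleotides, phosphate and iron across the inner membrane. It also holds *Slc25a17*, a peroxisomal carrier. Of 33, 8 were higher and 17 lower in wildtype M1 and 8 did not pass. These are 24.2% and 51.5%, close to the 26.6% and 52.0% of all genes tested. The carriers of oxidative phosphorylation were all lower: *Slc25a5* stood at 196, 187 and 181 FPKM in M1 and 422, 423 and 416 FPKM in M2 (log2 change -1.16, SE 0.066, adjusted p = 5.8e-09), *Slc25a4* at 48.8, 54.9 and 38.6 and 113, 126 and 106 FPKM, and *Slc25a3* at 145, 137 and 134 and 271, 279 and 269 FPKM. In all 3 every M1 library lay below every M2 library. The aspartate/glutamate carriers of the malate-aspartate shuttle went apart, with *Slc25a12* at 39.5, 37.0 and 41.0 FPKM in M1 and 15.0, 15.2 and 15.1 FPKM in M2 and *Slc25a13* at 3.24, 3.26 and 3.19 FPKM in M1 and 13.2, 14.0 and 11.4 FPKM in M2. *Slc25a12* therefore held 92.4 ± 0.45% of the pair in M1 and 54.1 ± 2.6% in M2. Of the 2 mitoferrins, *Slc25a37* held 82.9 ± 1.3% in M1 and 36.2 ± 0.98% in M2, and *Slc25a28*, mitoferrin 2, rose by 0.37. *Slc25a39*, a carrier of mitochondrial glutathione, stood at 59.0, 51.4 and 52.9 FPKM in M1 and 92.3, 95.0 and 98.5 FPKM in M2 (log2 change -0.80), and *Slc25a38*, a glycine carrier needed for heme synthesis, rose by 0.25. Among carriers of the citrate cycle's acids, *Slc25a10*, the dicarboxylate carrier, rose by 0.59, *Slc25a1*, the citrate carrier, had a change of -0.22, and *Slc25a11*, the oxoglutarate carrier, one of 0.07 (adjusted p = 0.30). *Slc25a20*, which brings acylcarnitines into mitochondria, had a change of -0.25, and the calls on *Slc25a1* and *Slc25a20* ended under a scaling. The calcium-regulated ATP-magnesium/phosphate carriers *Slc25a24* and *Slc25a25* fell (-1.25 and -0.63).

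Carriers of ions and metals included the largest change downward and one of the largest upward. Of 25, 8 were higher in wildtype M1, 13 lower and 4 did not pass. These are 32% and 52%, where 26.6% of all genes tested were higher and 52.0% lower. For copper, *Slc31a1* and *Slc31a2* were both higher in M1, the latter at 209.6, 197 and 204 FPKM in M1 and 117, 120.2 and 127 FPKM in M2 (log2 change 0.74), and *Slc31a1* held 38.8 ± 0.85% of the pair in M1 and 19.8 ± 0.90% in M2. Among the sodium/proton exchangers, *Slc9a9* of endosomes and *Slc9a7* of the Golgi network fell, as described above, and *Slc9a8* had a change of 0.04 (adjusted p = 0.45). The potassium-chloride cotransporters *Slc12a4* and *Slc12a7* fell (-0.81 and -0.83). *Slc8b1*, the mitochondrial sodium/calcium exchanger, rose by 0.82 and *Slc8a1*, that of the plasma membrane, by 0.48. The phosphate importers *Slc20a1* and *Slc20a2* fell (-0.52 and -0.49), and so did *Slc26a6* and *Slc26a11*, while the sulfate importer *Slc26a2* rose (0.60).

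**Figure D3:**
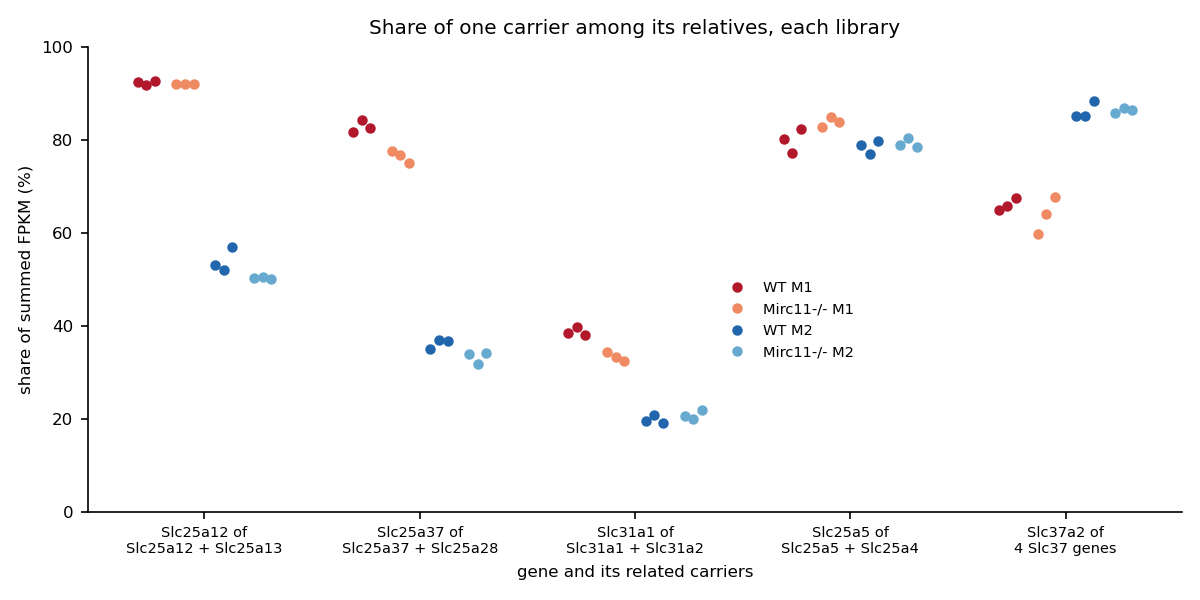
Share (y axis, %) of one carrier in the summed FPKM of itself and its relatives in each library (points), for 5 sets (x axis) and 4 groups (WT, wildtype). *Slc25a12*, *Slc25a37* and *Slc31a1* took larger shares in M1 than in M2, *Slc37a2* a smaller one, and those of *Slc25a5* lie between 77.0% and 84.8% in all libraries, highest in Mirc11-/- M1.

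Of 24 nucleoside, vitamin, lipid and organic ion carriers, 6 were higher and 15 lower in wildtype M1 and 3 did not pass (62.5% lower, where 52.0% of all genes tested were lower and 26.6% higher). Beside the rise of *Slc28a2*, the equilibrative nucleoside transporter *Slc29a1* stood at 17.3, 17.1 and 17.7 FPKM in M1 and 42.5, 44.6 and 42.0 FPKM in M2 (log2 change -1.26), and *Slc29a2* and the lysosomal *Slc29a3* had changes of -0.63 and -0.27. The concentrative *Slc28a2* was thus higher and the equilibrative *Slc29a1* lower in M1, while the call on *Slc29a3* ended under a scaling. *Slc29a2*, and *Slc5a6* below, reached the minimum of 1 FPKM only in M2, so part of their difference follows from it. The folate carriers *Slc19a1* and *Slc46a1* fell (-0.98 and -1.18), and *Slc5a6*, which imports biotin and pantothenate, fell too (-0.80). *Slc23a2*, an ascorbate importer, and *Slc19a2*, a thiamine transporter, rose by 0.53 and 0.48, as did *Slc27a4*, a fatty acid transport protein, by 0.57. *Slc13a3*, an importer of succinate and other dicarboxylates, stood at 20.2, 20.0 and 23.9 FPKM in M1 and 37.1, 30.5 and 51.0 FPKM in M2 (log2 change -0.83). *Slc48a1* stood at 217, 226 and 197 FPKM in M1 and 183, 195 and 169 FPKM in M2, with the groups nearly touching and a call (log2 change 0.23, adjusted p = 0.027) that ended in 4 of 12 fits with a library left out.

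Carriers of nucleotide sugars feed glycosylation in the Golgi apparatus and endoplasmic reticulum, and 13 of 21 were lower in wildtype M1, 1 higher and 7 not passing. These are 61.9% lower and 4.76% higher, where 52.0% of all genes tested were lower and 26.6% higher. The median log2 change of the class, -0.21, was close to the -0.19 of all genes tested. The largest changes were those of *Slc35g1* (-0.97), *Slc35c2* (-0.95) and *Slc35b2*, which supplies the sulfate donor PAPS to the Golgi (-0.86), and *Slc35a2*, the UDP-galactose transporter, rose by 0.23. The sialic acid donor transporter *Slc35a1* fell by a small amount (-0.33), beside the larger fall of *Slc17a5*. The calls on *Slc35b3*, *Slc35e2* and *Slc35e3* changed sign under a scaling without passing the test there. Of 15 sugar and monocarboxylate carriers, 5 were higher, 6 lower and 4 did not pass. These are 33.3% and 40%, beside the same shares of all genes tested. *Slc2a6*, a lysosomal member of the glucose transporter family, stood at 71.2, 62.8 and 70.9 FPKM in M1 and 48.5, 41.5 and 49.5 FPKM in M2 (log2 change 0.55), *Slc2a8* fell from 8.61 FPKM in M2 to 3.81 FPKM in M1, and *Slc2a9*, a urate transporter, had a change of -0.14 (adjusted p = 0.055). Of the monocarboxylate family, *Slc16a10*, which carries aromatic amino acids, and *Slc16a6* rose by 0.67 and 0.61, *Slc16a7* fell and *Slc16a1* had a change of 0.21 (adjusted p = 0.071). *Slc37a2* held 66.0 ± 1.4% of the summed FPKM of the 4 Slc37 genes in M1 and 86.2 ± 1.8% in M2. Among the 4 genes named after a carrier, *Slc9a3r1* rose by 0.40 and 3 were called lower, of which *Slc4a1ap* changed sign under a scaling.

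Summed over a class, the levels moved less evenly than the counts, and no test was made of these sums. Amino acid and peptide carriers summed to 1265 ± 19 FPKM in the wildtype M1 libraries and 915 ± 5.9 FPKM in those of M2, of which *Slc15a3* made up 592 and 236 FPKM. Mitochondrial carriers summed to 864 ± 29 FPKM in M1 and 1278 ± 16 FPKM in M2, carriers of ions and metals to 539 ± 5.7 and 406 ± 6.6 FPKM, and nucleotide sugar carriers to 245 ± 3.7 and 299 ± 4.7 FPKM (SD, n = 3). Over all 145 members the sum was 3638 ± 27 FPKM in M1 and 3702 ± 20 FPKM in M2. Their total was thus similar. The sums of the amino acid, ion and mitochondrial classes differed largely through a few abundant genes, such as *Slc15a3*. *Slc31a1* stood at 126 to 131 FPKM in wildtype M1 and 28.2 to 31.6 FPKM in wildtype M2, and *Slc31a2* averaged 204 and 121 FPKM. *Slc25a5* averaged 188 and 420.4 FPKM and *Slc25a3* 139 and 273 FPKM. For these classes the sums do not show a shift of the class as a whole.

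**Figure D4:**
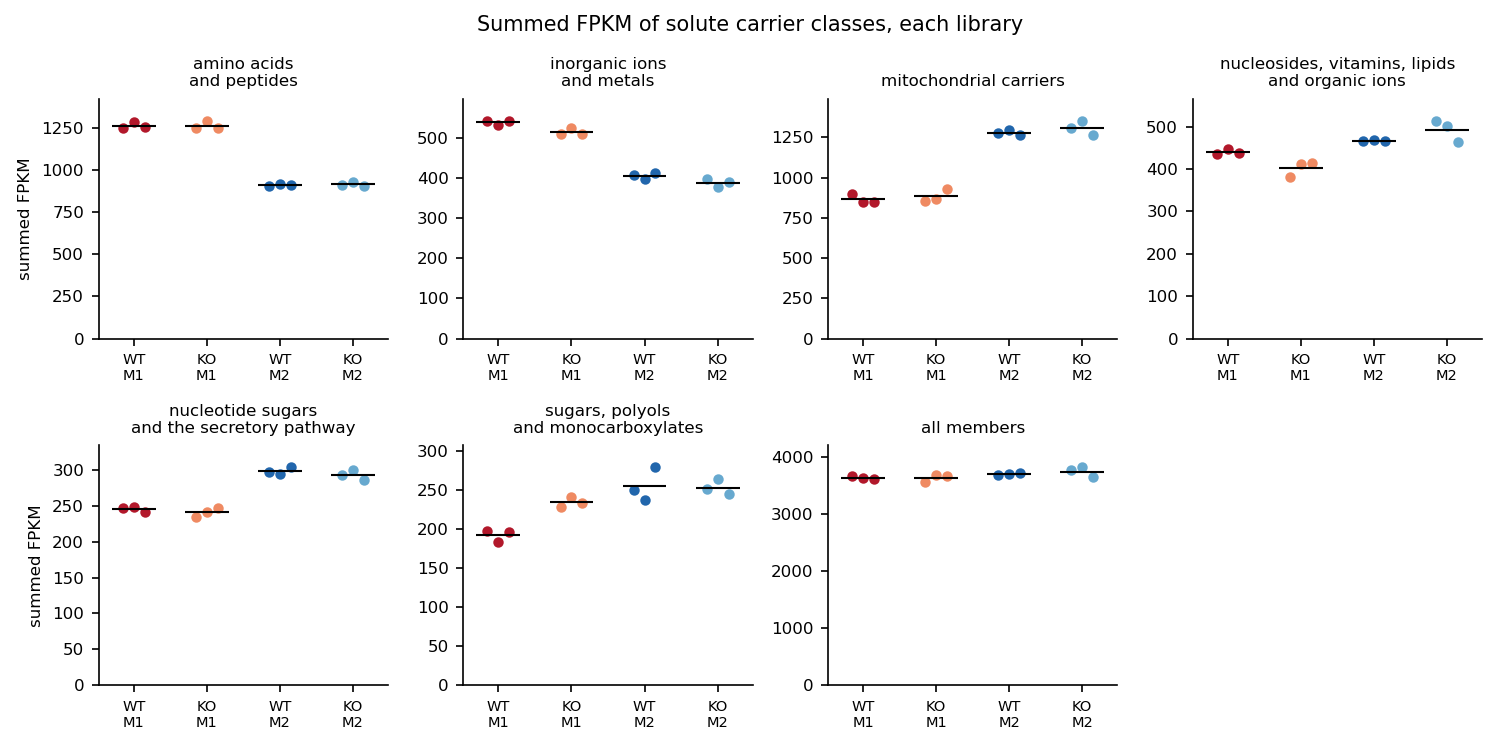
Summed FPKM (y axes from 0) of 6 transport classes and of all 145 members in each library (points; WT, wildtype; KO, Mirc11-/-), with the mean of 3 libraries as a line. Amino acid carriers and ion carriers sum higher in M1, mitochondrial and nucleotide sugar carriers higher in M2, and the total is similar in every group. The sums follow a few abundant genes, such as *Slc15a3*, *Slc31a1*, *Slc31a2*, *Slc25a5* and *Slc25a3*.

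M1 against M2 in *Mirc11-/-* cells asked the same of cells that lack the cluster. Here 35 members were higher in M1 and 83 lower, which are 24.1% and 57.2%, where 26.0% of all genes tested were higher and 54.0% lower. After median-of-ratios scaling 54 members were higher and 63 lower. In both genotypes 31 members were called higher and 76 lower, none was called in opposite directions, 10 were called only in wildtype and 11 only in *Mirc11-/-* cells, and 17 in neither. The comparisons share no libraries. This overlap was not counted over all genes tested, so whether it is particular to the carriers cannot be said. The order of the leading genes was similar, with *Slc28a2* at 37.4, 44.4 and 29.2 FPKM in M1 and 2.17, 2.38 and 2.22 FPKM in M2 (log2 change 3.52) and *Slc25a37* at 36.8, 34.2 and 33.2 FPKM in M1 and 4.73, 4.39 and 4.78 FPKM in M2 (2.67). On the other side, *Slc9a9* had a change of -3.72, *Slc1a5* of -3.25 and *Slc46a3* of -2.94. Here too, *Slc9a9* and *Slc46a3* reached the minimum of 1 FPKM only in M2. Further named genes were *Slc2a6* (1.05), *Slc31a2* (0.97) and *Slc25a10* (0.95), higher in M1, and *Slc46a1* (-1.32), *Slc26a6* (-1.26) and *Slc2a8* (-1.22), lower. By class, amino acid carriers were 6 higher and 13 lower, ions and metals 9 and 14, mitochondrial carriers 9 and 18, nucleosides and vitamins 2 and 15, nucleotide sugars 3 and 14, and sugars 5 and 7. That a call stands in one genotype alone was not tested except through the difference given below.

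*Mirc11-/-* against wildtype in M1 addressed the carriers of cells without the cluster under LPS and interferon gamma. *Slc25a37*, *Slc22a4*, *Slc1a2* and *Slc6a8* had the largest falls in *Mirc11-/-* cells, and *Slc2a6* and *Slc25a10* the largest rises. Of the members, 10 rose and 24 fell, and 111 did not pass, which are 6.90% and 16.6%, where 5.99% of all genes tested rose and 7.96% fell. No member changed by 1 or more on the log2 scale, which was not counted over all genes tested. The median was -0.04 over members and -0.02 over all genes. After median-of-ratios scaling 13 rose and 20 fell. The number that rose was 6 without library Wt2261M1 and 5 without library Ako2272M1. Of the 6 libraries with agreeing labels, Wt2260M1 was the only wildtype M1 library, so a fit to these cannot decide the counts. The summed level of the 4 M1 polarization genes (*Nos2* among them) was 2000 to 2376 FPKM in wildtype M1 and 1614 to 1726 FPKM in *Mirc11-/-* M1, and the neutrophil and endothelial marker sums given above also differed between these groups, and their part was not tested.

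*Slc25a37* stood at 59.3, 62.0 and 59.9 FPKM in wildtype M1 and 36.8, 34.2 and 33.2 FPKM in *Mirc11-/-* M1 (log2 change -0.78, SE 0.049, adjusted p = 2.6e-06). The wildtype libraries were all above the *Mirc11-/-* ones by more than 1.5-fold, and this call held in every alternative tried. *Slc22a4* stood at 8.19, 10.5 and 7.20 FPKM in wildtype and 4.38, 4.44 and 4.80 FPKM in *Mirc11-/-* cells (log2 change -0.78, SE 0.14, adjusted p = 0.0041), *Slc1a2* at 3.45, 4.75 and 2.99 and 2.46, 1.93 and 1.33 FPKM (log2 change -0.70, adjusted p = 0.0075), and *Slc6a8* at 23.9, 25.6 and 21.8 and 14.5, 15.8 and 15.7 FPKM (log2 change -0.60, adjusted p = 0.00024). For these genes, no overlap between the genotypes was a condition of naming. The other named members that fell were *Slc41a2*, a magnesium transporter (-0.47), *Slc4a7*, a sodium bicarbonate cotransporter (-0.42), *Slc19a2* (-0.41) and *Slc48a1* (-0.38). Outside the rule for naming, and chosen after their values were seen, *Slc23a2* fell from 45.6 to 34.7 FPKM (-0.38), *Slc31a1* from 129 to 106 FPKM (-0.28) and *Slc43a2*, an exporter of neutral amino acids, from 67.6 to 55.6 FPKM (-0.28). *Slc25a37*, *Slc22a4*, *Slc1a2*, *Slc31a1*, *Slc19a2*, *Slc23a2* and *Slc48a1* were also higher in wildtype M1 than in M2, but both comparisons rest on the same wildtype M1 libraries. *Slc6a8* was lower in wildtype M1 than in M2 (-0.65), and *Slc43a2* had a change of -0.003. *Slc4a7* averaged 10.4 FPKM in wildtype M1 and 14.0 in M2, and *Slc41a2* 9.14 and 9.91. Of members that rose in *Mirc11-/-* M1, *Slc2a6* and *Slc25a10* were higher in wildtype M1 than in M2 too (0.55 and 0.59). Others averaged lower in wildtype M1 than in M2: *Slc25a25* (7.74 and 12.5 FPKM), *Slc35g1* (1.36 and 3.64), *Slc43a3* (1.31 and 2.16) and *Slc22a18* (0.806 and 3.17). *Slc22a18* was below the minimum of 1 FPKM in wildtype M1 alone, so part of its difference follows from it.

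Upward, *Slc2a6* stood at 71.2, 62.8 and 70.9 FPKM in wildtype M1 and 115, 116 and 106 FPKM in *Mirc11-/-* M1 (log2 change 0.71, SE 0.11, adjusted p = 0.0014), and *Slc25a10* at 40.7, 32.8 and 40.9 and 53.3, 54.5 and 54.7 FPKM (log2 change 0.50, adjusted p = 0.0034). In both genes every *Mirc11-/-* library was above every wildtype library, as the rule for naming required. Smaller rises were those of *Slc22a18* (0.47), *Slc43a3*, a purine nucleobase transporter (0.33), *Slc25a25* (0.33), *Slc35g1* (0.31), and *Slc35d2*, a nucleotide sugar transporter (0.26). *Slc16a6* and *Slc44a2* rose too. By class, amino acid carriers had 0 rises and 6 falls among 23, ions and metals 0 and 4 among 25, mitochondrial carriers 3 and 4 among 33, nucleosides and vitamins 3 and 5 among 24, nucleotide sugars 2 and 4 among 21, and sugars 2 and 1 among 15. Of all genes tested, 5.99% rose and 7.96% fell. Restricted to the 6 libraries with agreeing labels, the calls on *Slc1a2*, *Slc41a2*, *Slc4a7*, *Slc19a2*, *Slc22a18*, *Slc43a3*, *Slc25a25*, *Slc35g1* and *Slc35d2* ended. Only Wt2260M1 was left of wildtype M1 there, so this cannot be told from the loss of samples. The call on *Slc1a2* ended when M1 libraries alone were fitted too. Those on *Slc22a18* and *Slc35g1* also ended without a filter, and in 4 and 3 of 12 fits with a library left out. Of the 10 members on chromosome 8, which carries the cluster, *Slc35e1* and *Slc20a2* fell.

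**Figure D5:**
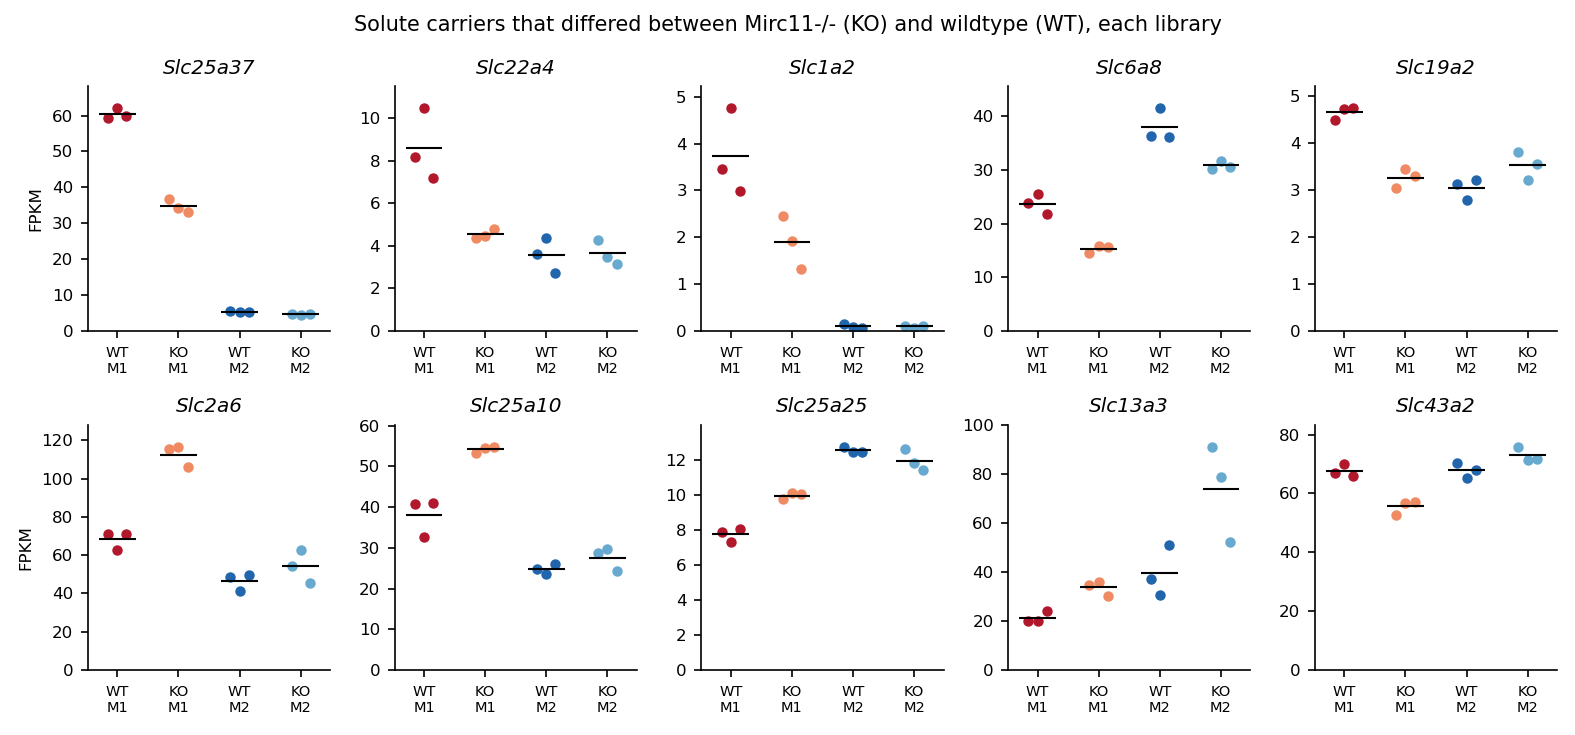
FPKM (y axes from 0) of 10 members called in a comparison of Mirc11-/- (KO) with wildtype (WT) or in the difference of both, in each library (points) of the 4 groups (x axis), with the mean of 3 as a line. *Slc25a37*, *Slc22a4*, *Slc1a2*, *Slc6a8* and *Slc19a2* lie lower and *Slc2a6*, *Slc25a10* and *Slc25a25* higher in KO M1 than in WT M1, and *Slc13a3* higher in KO M2 than in WT M2.

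In M2, where the question was the same under IL-4 and IL-13, 2 members rose and 3 fell in *Mirc11-/-* cells, where 2.50% of all genes tested rose and 2.09% fell. An unadjusted limma p below 0.05 was found for 40 of 145 members and for 1861 of 10137 genes tested. *Slc13a3* stood at 37.1, 30.5 and 51.0 FPKM in wildtype M2 and 90.9, 78.8 and 52.4 FPKM in *Mirc11-/-* M2 (log2 change 0.88, SE 0.20, adjusted p = 0.026). The *Mirc11-/-* libraries were all above the wildtype ones, as the rule for naming required, the lowest of them by little. The call ended in 4 of 12 fits with a library left out and when M2 libraries alone were fitted. In M1 the same gene stood at 20.2, 20.0 and 23.9 FPKM in wildtype and 34.9, 36.0 and 30.4 FPKM in *Mirc11-/-* cells, a log2 change of 0.64 that did not pass (adjusted p = 0.051). *Slc35g1* stood at 3.63, 3.27 and 4.03 and 6.04, 4.78 and 5.08 FPKM (log2 change 0.44, adjusted p = 0.0095), and *Slc6a8* at 36.2, 41.5 and 36.1 and 30.2, 31.7 and 30.6 FPKM (-0.29, adjusted p = 0.034). *Slc35e1* fell (-0.28), as did *Slc25a17*, a peroxisomal carrier of coenzyme A and related nucleotides (-0.20). *Slc35g1*, *Slc6a8*, *Slc35e1* and *Slc25a17* were the 4 members called in both polarizations, each in the same direction. In M2 the call on *Slc25a17* ended in 10 of 12 fits with a library left out and that on *Slc6a8* in 6, and in M1 that on *Slc35g1* ended in 3. With M2 libraries fitted alone, the M2 calls on *Slc35g1*, *Slc6a8* and *Slc25a17* ended. After quantile normalization 7 members fell, without a filter 1 rose, and with M2 libraries fitted alone 0 rose and 1 fell. The counts are small and move with single libraries: between 1 and 4 rose and between 1 and 4 fell with a library left out, as few as 1 in either direction without library Wt2260M2, Wt2261M2, Ako2271M2 or Ako2272M2, and 1 fell without library Ako2273M2 or Ako2272M1, while 4 rose without library Wt2261M1. Of the 6 libraries with agreeing labels, Wt2260M2 was the only wildtype M2 library, so a fit to these cannot decide the counts.

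A test of whether the genotype effect differed between M1 and M2 passed for 4 members, 1 upward and 3 downward, where it did for 0.937% and 0.917% of all genes tested. An unadjusted limma p below 0.05 was found for 31 of 145 members and for 1443 of 10137 genes tested. For *Slc25a37* the effect was -0.78 in M1 and -0.18 in M2, a difference of -0.61 (SE 0.069, adjusted p = 0.0017). *Slc19a2* stood at 4.48, 4.72 and 4.73 FPKM in wildtype M1, 3.04, 3.43 and 3.29 in *Mirc11-/-* M1, 3.12, 2.78 and 3.21 in wildtype M2 and 3.81, 3.21 and 3.55 in *Mirc11-/-* M2, with effects of -0.41 and 0.16 (difference -0.57, adjusted p = 0.0099). Its wildtype M1 level stood above the other 3 groups, in which all libraries lay between 2.78 and 3.81 FPKM. *Slc43a2* stood at 67.1, 69.9 and 66.0 FPKM in wildtype M1, 52.8, 56.8 and 57.1 in *Mirc11-/-* M1, 70.3, 65.1 and 68.0 in wildtype M2 and 75.7, 71.5 and 71.8 in *Mirc11-/-* M2 (difference -0.38, adjusted p = 0.019), and here the *Mirc11-/-* M1 libraries were the low ones. *Slc25a25* had effects of 0.33 in M1 and -0.06 in M2 (difference 0.39, adjusted p = 0.015). These calls ended in the fit restricted to the 6 libraries with agreeing labels. Its only wildtype libraries were Wt2260M1 and Wt2260M2, so this cannot be told from the loss of samples. Without library Ako2272M1 or Wt2260M2, 0 members were higher, and 2 were without library Wt2262M1. The other changes called in M1 alone, such as that of *Slc22a4* (difference -0.81, adjusted p = 0.066) and *Slc2a6* (0.51, adjusted p = 0.12), were not shown to differ from M2.

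Seed matches of the 3 deleted microRNAs were looked up in the longest annotated 3' UTR (GENCODE M21), which 142 of the 145 members had. At least 1 match, to bases 2 to 8 with or without an A after it, was found in 63 members (44.4%), where 3796 of 9438 tested genes with a 3' UTR (40.2%) had one. By microRNA the shares were 16.2% and 16.3% for miR-23a, 14.8% and 16.7% for miR-27a, and 25.4% and 18.8% for miR-24. Members with a match had a median log2 change of -0.07 in *Mirc11-/-* M1 and those without of -0.03, where both medians over all tested genes were -0.02. Of the 10 members that rose in *Mirc11-/-* M1, 2 had a match, *Slc35d2* and *Slc25a25*, and of the 24 that fell, 12 did, among them *Slc6a8* and *Slc1a2*, the latter with 7 matches. In M2, 0 of 2 that rose and 1 of 3 that fell had one. A match of each member that rose is shown to set its letters beside the seeds printed above, with one each from *Slc6a8* and *Slc1a2*, which fell. Capitals mark the letters opposite the seed.
*Slc35d2*, miR-24: cattgctcttaactgCTGAGCCatctcacc
*Slc25a25*, miR-24: atgtcctcgcctattCTGAGCCcaccagca
*Slc6a8*, miR-23a: agggacagtggaaccAATGTGAatattgca
*Slc1a2*, miR-27a: gaatcctttccggggACTGTGAaagtctga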

How the data were processed

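RNA sequencing of bone marrow-derived macrophages was analysed in 12 libraries, grouped by title. The authors aligned reads with STAR 2.5.1 to mm9 and deposited FPKM per gene from Cufflinks. Annotation, strand setting and filters are not given in the sources used here. Tables of the authors' own comparisons, which hold log2 fold changes and adjusted p-values and for which their processing notes name DESeq, were not used. A gene at 0 FPKM may be a failed estimate. Depth per library is known only in relative terms, so no counting intervals are given.

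The 10137 genes with a mean of at least 1 FPKM were tested on log2(FPKM + 1), a scale that understates folds of low genes, with limma 3.58.1 in R 4.3.3 (means of the 4 groups, all 12 libraries, intensity trend, two-sided). P-values were adjusted by Benjamini-Hochberg over all of these genes within each of 5 comparisons, at a threshold of 0.05. The fit was tested on simulated data.

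The members, gene lists, classes and the rule for named genes were chosen with earlier results of these data known. Named were up to 12 members per direction with the largest change and no overlap between groups for M1 against M2 in wildtype, up to 3 more in *Mirc11-/-* cells, up to 8 per direction in each genotype comparison, up to 5 for the difference, the highest member of each class, and a set list of carriers. Others were named after their values were seen, and some members are counted but not reported by name here.

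Alternatives were a pseudocount of 0.1, no filter, median-of-ratios and quantile scaling, each library left out, only the 6 libraries with agreeing labels, a fit within a polarization, and the title number as a block. Chromosomes, promoters and microRNAs come from GRCm38.p6, a build other than that of the files.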

Additional observations from a re-analysis of the deposited data

Results flagged for a closer look

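In 4 members the effect of the *Mirc11-/-* genotype differed between M1 and M2 by a test of the difference itself. The difference, M1 minus M2 on the log2 scale, was -0.61 for *Slc25a37* (mitoferrin 1), -0.57 for *Slc19a2* (thiamine transporter), -0.38 for *Slc43a2* (amino acid exporter) and 0.39 for *Slc25a25* (ATP-magnesium/phosphate carrier), with limma adjusted p between 0.0017 and 0.019 and 3 libraries in each group. In *Slc25a37* all 3 *Mirc11-/-* libraries lay below all 3 wildtype libraries in M1, and in M2 they did so too, by less. In *Slc19a2* the *Mirc11-/-* libraries lay below in M1, and in M2 the genotypes overlapped. The call on *Slc25a25* ended in 2 of 12 fits with a library left out and that on *Slc43a2* in 1, while those on *Slc25a37* and *Slc19a2* ended in none of these.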

How the results depend on the processing

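For M1 against M2, of the values of named members under the alternatives, 1056 kept direction and side of the threshold in wildtype, 25 lost the call, 14 gained it, and 108 of 108 kept both for the genes added in *Mirc11-/-* cells. *Slc43a2*, not called in wildtype, was at 0.21 and passed after median-of-ratios scaling (adjusted p = 0.0011). The members higher in *Mirc11-/-* M1 than M2 numbered 54 after median-of-ratios scaling and 54 after quantile normalization, against 35. Of the values of named members, 32 lost the call in *Mirc11-/-* against wildtype in M1 (272 kept it), 31 in M2 (64 kept it) and 9 in the difference (63 kept it).

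Of the 6 libraries with agreeing labels, only Wt2260M1 and Wt2260M2 were wildtype, so counts from the fit to these are not given. With a library left out, 5 to 11 rose and 16 to 28 fell in M1, 1 to 4 rose and 1 to 4 fell in M2, and 0 to 2 were higher and 2 to 4 lower in the difference. In M2, 1 rose without a filter, 7 fell after quantile normalization, and with M2 libraries fitted alone 0 rose and 1 fell. Without a filter, and after either scaling, 2 members were higher in the difference. The cause was not tested. Absolute depth is unknown, so what it limits cannot be stated.

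Libraries that share a title number did not deviate together: the correlations of their deviations from the group means ran from -0.291 to 0.212, over 0.1 in 2 of 6 numbers, and 5 of 12 libraries correlated best with their own number. With the number as a replicate block, 39 members were higher and 78 lower in wildtype M1, 38 and 81 in *Mirc11-/-* M1, and 1 and 3 in the difference, in which the calls on *Slc25a25* and *Slc43a2* ended. With the block entered as a correlation, 10 rose and 24 fell in *Mirc11-/-* M1 and 2 and 3 in M2.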

Other observations

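Of 29 tested transporter genes named outside the Slc scheme, 3 were higher and 22 lower in wildtype M1 (3 and 24 in *Mirc11-/-* M1), where 26.6% of all genes tested were higher and 52.0% lower (26.0% and 54.0% in *Mirc11-/-* cells). Their median log2 change in wildtype was -0.58, beside -0.19 over all genes, and median-of-ratios scaling moved the median of all genes by 0.19. *Slco3a1*, an organic anion transporter, averaged 114 ± 8.1 FPKM in wildtype cells in M1 but 1.46 ± 0.31 FPKM in M2 (log2 change 5.55), a larger change than that of any member. *Mfsd12*, which brings cysteine into lysosomes, was at 26.5 ± 0.90 FPKM in M1 and 148 ± 1.5 FPKM in M2 (log2 change -2.44), and *Ucp2*, a carrier of the mitochondrial inner membrane, 76.4 ± 6.3 and 263 ± 6.6 FPKM (-1.77). In *Mirc11-/-* against wildtype cells, 0 of the 29 rose and 5 fell in M1 (5.99% and 7.96% of all genes tested did), and 1 rose and 1 fell in M2 (2.50% and 2.09%).

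Of 13 genes that encode chaperones and regulators of carriers, 6 were higher and 7 lower in M1 in each genotype, beside the shares of all genes given above. *Bsg*, the chaperone of monocarboxylate transporters, was at 337 ± 32 FPKM in wildtype M1 libraries, against 166 ± 7.4 FPKM in M2 (SD, n = 3). *Sgk1*, a kinase that regulates many carriers, averaged 22.0 ± 2.2 FPKM in wildtype M1, 10.5 ± 2.2 in *Mirc11-/-* M1, 110.5 ± 14 in wildtype M2 and 71.4 ± 1.7 in *Mirc11-/-* M2, and fell in *Mirc11-/-* cells in both polarizations, as did *Arrdc3*. The other 11 passed in neither genotype comparison. These lists were chosen with earlier results of these data known, and they are described with no test of the list.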
